A study of Mus musculus with 31 samples.

Results

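Among 12 RNA-seq libraries of sorted mouse astrocytes, 6 had little Lcn2 messenger RNA, and these 6 were compared by the number of intracerebral injections. The members were chosen by their Lcn2 expression: libraries with fewer than 100 CPM (estimated counts scaled to a common library total) were kept, and 3 of the 6 carry the label 2X and 3 carry the label 1X. This grouping is one of expression and it crosses the treatment labels. The 2X members are 2X cytokine replicates 1, 2 and 3, whereas the 1X members are 1X PBS replicate 1 and 1X cytokine replicates 2 and 3.

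The mice were female C57Bl/6 animals of 10 weeks, per the sample labels, and received either PBS or a mixture of the inflammatory cytokines IL-1β (100 ng/mL) and TNF-α (50 ng/mL) into both lateral ventricles of the brain. In the 2X schedule an earlier injection was followed by a repeat on day 7, whereas in the 1X schedule the day 7 injection was the only one. Astrocytes were sorted 18 to 24 hours after the last injection. The short label of the cytokine samples names TNFalpha alone while the protocol gives both cytokines. The sources used here do not name the sorting markers. The titles of all RNA-seq libraries used here begin with SPF, the usual short form of specific pathogen-free. All 6 members therefore share strain, sex, age, SPF title, surgery and sort. Of the 3 members with 1 injection, however, 1 is labelled PBS and 2 are labelled cytokine. No 2X library labelled PBS is a member, so among the members 2 injections cannot be told apart from 2 injections of cytokine. By Lcn2, 5 of the 6 libraries labelled cytokine fell below the limit and 5 of the 6 labelled PBS above it, so that 1X PBS replicate 1 and 1X cytokine replicate 1 each lay with libraries of the other label. In the 2X libraries, the complement gene C3 held 334 to 624 CPM with the PBS label and 17.6 to 22.3 CPM with the cytokine label (scaled as described below). Gfap held 1034 to 1132 CPM and 112 to 149 CPM. For Lcn2 and C3 this is the reverse of the response to these cytokines described below. Whether the labels of those 2 libraries, or of PBS and cytokine as a whole, were exchanged was not tested. Every statement on the agent goes by the labels as given. Whether a library is a single animal is not stated in the labels, and the p-values below reflect only variation among libraries, part of which may be technical.

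Lcn2 encodes lipocalin-2, a secreted iron-siderophore binding protein that astrocytes, neutrophils and other cells make in inflammation. Astrocytes respond to IL-1β and TNF-α through receptors that signal to NF-κB and MAP kinases, which turn on chemokine, complement and antigen presentation genes and can lower genes of glutamate uptake and potassium buffering. The walls of the ventricles, where the injections were placed, are lined by ependymal cells, which bear motile cilia, and the choroid plexus hangs within the ventricles and secretes cerebrospinal fluid. Motile cilia are built under the control of the transcription factors FOXJ1 and RFX, the latter of which bind a motif called the X-box.

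The values that chose the members were as follows. Lcn2 stood at 14.9 CPM in 2X cytokine replicate 1, 2.32 in replicate 2 and 1.23 in replicate 3. It stood at 5.03 CPM in 1X PBS replicate 1, 11.4 in 1X cytokine replicate 2 and 3.73 in 1X cytokine replicate 3. These levels rest on 4 to 42 estimated counts. The member nearest to the limit was 2X cytokine replicate 1, and the library nearest to it from outside was 2X PBS replicate 2 at 374 CPM. The other 6 libraries, here called Lcn2-high, reached up to 1069 CPM and comprise 1X PBS replicates 2 and 3, 1X cytokine replicate 1 and all 3 libraries labelled 2X PBS. No test was made on Lcn2, since it set the groups.

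**Figure D1:**
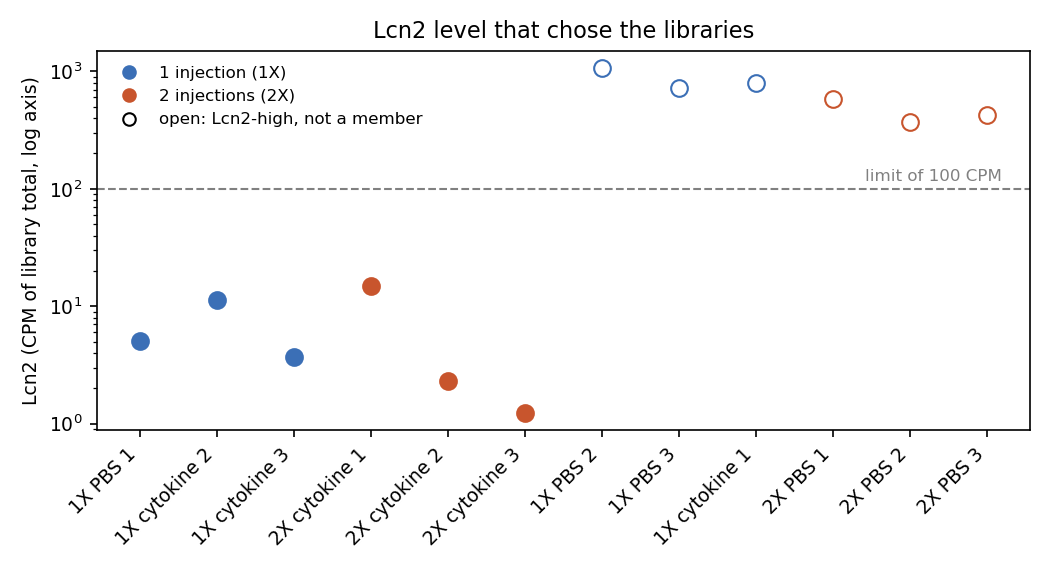
Lcn2 in each of the 12 libraries, in CPM of the library total on a log axis, with the limit of 100 CPM as a dashed line. The 6 filled points (members) lie between 1.23 and 14.9 CPM and the 6 open points (Lcn2-high libraries) between 374 and 1069 CPM.

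The members held between 1878418 and 3247724 estimated counts, so that a floor of 3 counts lay between 0.924 and 1.60 CPM, and between 14010 and 15657 genes had at least 5 counts. Members with 2 injections were somewhat deeper (2585250 to 3247724 counts) than those with 1 (1878418 to 2785087). Expression levels below are CPM on library sizes scaled by the trimmed mean of M values (TMM). The labelled cell type was checked against its markers. All 26 astrocyte genes on a list of homeostatic functions were tested, and their summed level ran from 58730 to 66230 CPM in the 2X members and from 58410 to 71230 CPM in the 1X members. Markers of other cells were present too. Over the members, 10 choroid plexus genes summed to between 3873 and 21350 CPM and 8 erythrocyte genes to between 952 and 13390 CPM. The 13 oligodendrocyte genes summed to between 4237 and 7125 CPM, and 15 genes of mural cells and fibroblasts to between 4491 and 7894 CPM. The 20 microglia genes summed to between 554 and 1309 CPM. Of 12 T and NK cell genes, 3 were at 0 in all members and 8 stayed under 1 CPM.

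Pairs of members with 2 injections, on the whole the deeper libraries, differed less than pairs with 1. Over 8097 genes with a mean of at least 20 CPM, the median absolute log2 difference between 2 libraries was 0.155 to 0.161 for the 3 pairs of 2X members. It was 0.207 to 0.226 for the 3 pairs of 1X members and 0.180 to 0.219 for the 9 pairs made of 1 member from each schedule. The pair of 1X members that share the cytokine label differed by 0.211, so the mixed labels of that arm did not mark the closest pair within it. In a principal component analysis of the members, the first 3 components held 25.4%, 22.4% and 21.6% of the variance. The first ran from 20.5 (2X cytokine replicate 1) to -36.3 (1X cytokine replicate 3), with 1X PBS replicate 1 at 11.9 among the 2X members. On the second, however, 1X PBS replicate 1 stood alone at -37.27, with the other members between -3.54 and 20.54. The third set 1X cytokine replicate 2 apart at -37.85, with the other members between -0.59 and 19.33.

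The comparison asked which genes differ between 2 and 1 injections among libraries alike in Lcn2. With edgeR's quasi-likelihood test and Benjamini-Hochberg adjustment, 3 of 13254 genes (0.0226%) passed an adjusted p of 0.05, and 923 had an unadjusted p under 0.05. The median log2 fold change over all genes was -0.01. Eml2 and Cdhr4 rose with 2 injections, and the remaining call, Stra6, separates the Lcn2-high from the Lcn2-low libraries and is only described. Same-numbered members of both arms correlated weakly in their deviations from the arm means (0.172 to 0.264). The labels do not say what a number shares. Such correlations are not independent, since the 3 deviations of an arm sum to 0, and whether the numbers pair libraries was not tested. Number 1 joins the member labelled PBS with 2X cytokine replicate 1. With the replicate number as a block edgeR called 35 genes (0.264%), 16 higher and 19 lower with 2 injections. DESeq2 without the block called 24 (0.181%). The Lcn2 grouping orders 5 of the 35 and 6 of the 24. The count was 0 when 1X PBS replicate 1, 1X cytokine replicate 2 or 2X cytokine replicate 2 was left out, and 0 when all 3 libraries labelled 1X cytokine were set against all 3 labelled 2X cytokine. That last setting leaves the Lcn2-low group, since it replaces 1X PBS replicate 1 with 1X cytokine replicate 1, an Lcn2-high library, and the values below for libraries labelled cytokine alone all include it.

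Eml2 encodes a microtubule-associated protein of the EMAP family. On GRCm38 the gene (ENSMUSG00000040811.15) lies on chromosome 7 from 19176421 to 19206482. It stood at 55.7, 58.4 and 73.9 CPM in 2X cytokine replicates 1, 2 and 3, against 19.3 in 1X PBS replicate 1 and 22.1 and 27.8 in 1X cytokine replicates 2 and 3. Every 2X member lay above every 1X member, with means of 62.6 ± 9.86 CPM and 23.1 ± 4.36 CPM (SD, n = 3 libraries each). The log2 fold change was 1.49 (SE 0.18, edgeR adjusted p = 0.0495, with the replicate block 0.0036). Over 18 other settings its adjusted p ran from 1.26e-13 to 0.662, the lowest without a filter on low counts. In the Lcn2-high libraries the log2 fold change of Eml2 for 2X against 1X was 0.43 (edgeR adjusted p = 0.539), and the 2 changes did not pass the test of their difference (edgeR adjusted p = 0.28).

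Cdhr4 encodes a cadherin-related membrane protein and lies on chromosome 9 from 107992497 to 107999684 (ENSMUSG00000032595.10). The 2X members held 120, 129 and 108 CPM, and the 1X members held 54.9 (PBS replicate 1), 60.5 and 64.8 CPM. Both arms were tight and did not overlap. The log2 fold change was 1.01 (SE 0.12, edgeR adjusted p = 0.0495), and with the replicate block the adjusted p was 0.0141, within a range from 1.11e-08 to 0.684 over the 18 settings. Its relative Cdhr3 followed the same order, at 62.4, 62.5 and 62.2 CPM in the 2X members and 32.9, 36.6 and 33.3 CPM in the 1X members. That log2 fold change of 0.89 missed the threshold (edgeR adjusted p = 0.0535) and passed it with the replicate block (0.0199).

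Stra6, on chromosome 9 from 58063788 to 58153996, encodes a membrane receptor that takes up retinol from its carrier protein. It held 28.7, 22.4 and 25.9 CPM in the 2X members, and 52.2, 66.0 and 65.5 CPM in the 1X members. The 3 values with 2 injections all lay below those with 1. Because Stra6 is also ordered by the Lcn2 grouping over all 12 libraries, no test is given for it. Of the 13254 genes, 300 (2.26%) had such an order, with no overlap between Lcn2-high and Lcn2-low libraries and a mean log2 difference of at least 1. Among these 300, 205 had a lower and 95 a higher fitted level with 2 injections.

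**Figure D2:**
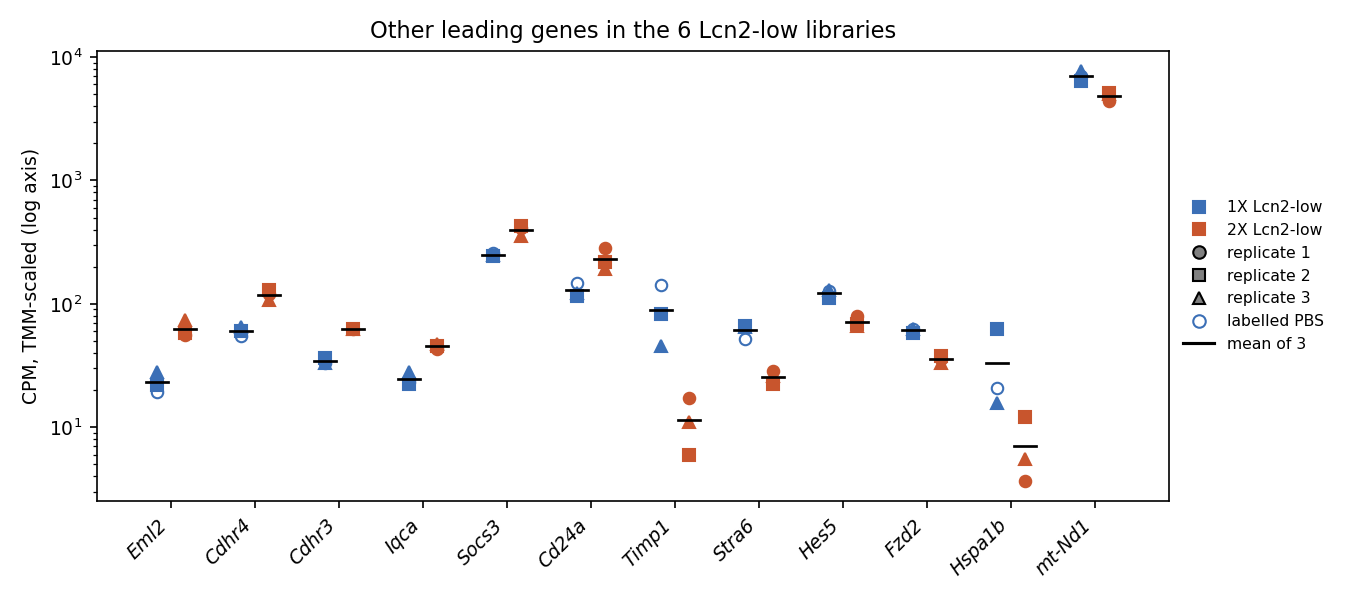
Levels of 12 leading genes in the 6 Lcn2-low libraries, in TMM-scaled CPM on a log axis, with 1X libraries in blue and 2X libraries in orange, 1 point per library and a bar at the mean of 3. Eml2, Cdhr4, Cdhr3, Iqca, Socs3 and Cd24a sit higher in every 2X library, and Timp1, Stra6, Hes5, Fzd2, Hspa1b and mt-Nd1 sit lower in every 2X library.

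Genes of ciliated ependymal cells were the clearest group on the higher side. All 12 listed ependymal markers had a higher fitted level with 2 injections, with log2 fold changes from 0.36 to 0.84 and a median of 0.70, against -0.01 over all genes. Of the 12, 10 had an unadjusted p under 0.05, where 4.13% of all genes did so in that direction, and 9 did not overlap between the arms, where 5.58% of all genes did so in that direction. The median was 0.42 when libraries labelled cytokine were compared alone. None of the 12 passed the adjusted threshold without the block, and 5 (Ccdc153, Ak7, Rarres2, Tmem212 and Foxj1) passed it with the block. Summed over the list, the 2X members held 863, 1012 and 1045 CPM and the 1X members held 598, 547 and 693 CPM, so every 2X member lay above every 1X member. The Lcn2-high libraries held 672 to 879 CPM with 2X and 924 to 1144 CPM with 1X. A high sum thus did not mark 2 injections outside the members. In bulk libraries of sorted cells, a change in the number of cells of a type and a change in RNA per cell cannot be told apart.

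Ccdc153, which encodes a coiled-coil protein of motile cilia, stood at 111, 119 and 120 CPM with 2 injections and at 67.3, 61.8 and 70.4 CPM with 1. The arms were separate (log2 fold change 0.84, edgeR adjusted p = 0.0535, with the block 0.0158). Ak7, an adenylate kinase of the ciliary axoneme, held 100, 102 and 111 CPM against 63.3, 54.9 and 68.8 CPM. Its log2 fold change was 0.78 (edgeR adjusted p = 0.101, with the block 0.0199). Foxj1, the master regulator of motile ciliogenesis, held 101, 126 and 130 CPM with 2 injections and 59.7, 58.0 and 92.8 CPM with 1, where 1X cytokine replicate 3 lay closest to the 2X members. The log2 fold change of Foxj1 was 0.80 (edgeR adjusted p = 0.25, with the block 0.0348).

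Rarres2, which encodes the secreted chemoattractant chemerin, was the most abundant of the 12 at 197, 215 and 218 CPM against 134, 127 and 150 CPM. Tmem212 stood at 89.7, 119 and 110 CPM against 63.1, 55.3 and 66.0 CPM. Rsph1, a component of the radial spoke of the axoneme, stood at 100, 125 and 124 CPM against 74.5, 58.7 and 88.9 CPM. These 3 genes again placed all 2X members above all 1X members, with log2 fold changes of 0.64, 0.82 and 0.69. Rarres2 and Tmem212 had edgeR adjusted p-values of 0.138 and 0.118 (with the block 0.0246 and 0.0348), and Rsph1 had 0.258 (with the block 0.0812). Cfap44, Dnah11 and Tekt1 were the 3 markers whose arms overlapped; the axonemal microtubule gene Tekt1, for example, held 40.1, 48.3 and 53.6 CPM with 2 injections and 37.8, 34.3 and 41.5 CPM with 1.

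Outside the list, Iqca, which encodes a protein with an IQ and an AAA domain, held 42.9, 45.3 and 47.4 CPM with 2 injections and 23.4, 22.5 and 27.8 CPM with 1 (log2 fold change 0.91, edgeR adjusted p = 0.101, with the block 0.0349). Cd24a, a surface glycoprotein that ependymal cells, neuroblasts and blood cells carry, held 286, 220 and 192 CPM against 148, 116 and 123 CPM. It had a log2 fold change of 0.87 (edgeR adjusted p = 0.162, with the block 0.0141). Both genes placed all 2X members above all 1X members.

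**Figure D3:**
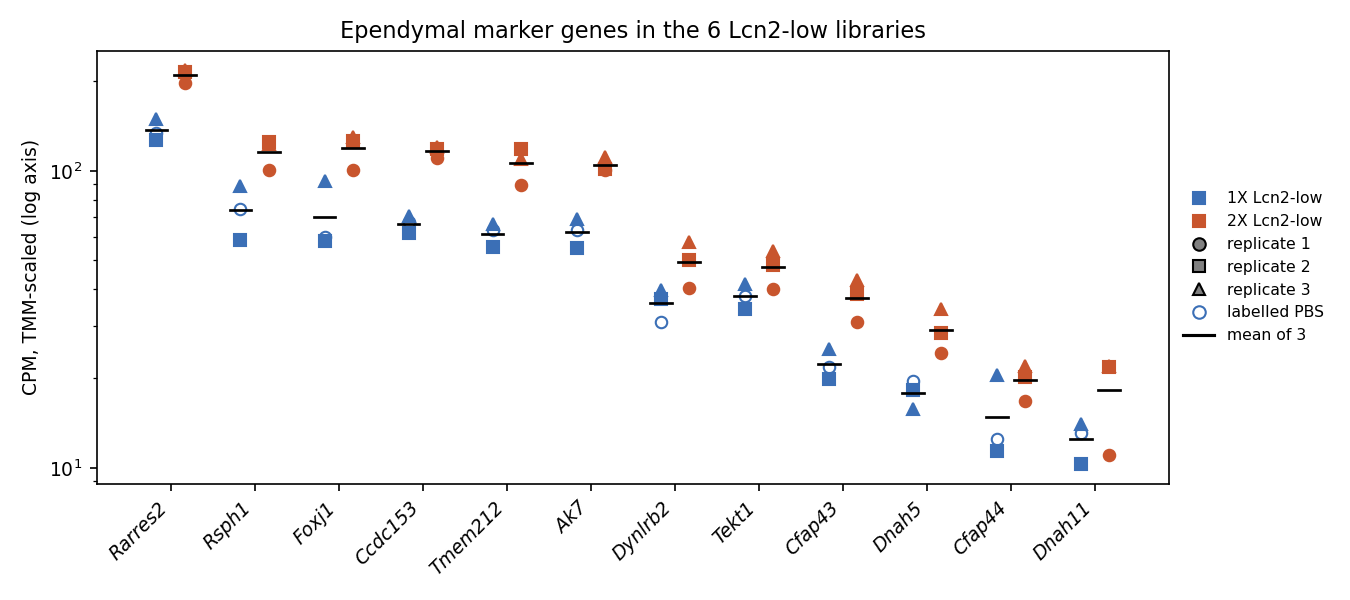
The 12 ependymal marker genes in the 6 Lcn2-low libraries, in TMM-scaled CPM on a log axis; 1X libraries are blue and 2X libraries orange, the open circle is the library labelled PBS, and bars are means of 3. Means are higher with 2 injections for all 12 genes, and the points of 9 genes do not overlap.

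Since these genes lay higher together, the 250 bases upstream of their starts were searched for the core of the X-box, GTTGCC, on both strands (RefSeq promoters, GRCm38.p6). This form of the motif was chosen after other spellings had been looked at. Of the 12 ependymal markers, 9 had a promoter in the table and 4 of those (44.4%) held the motif, where 11.8% of 27025 genes and 10.4% of 32851 promoter windows did. Outside the list, Cdhr3 and Iqca held it, and Cdhr4 and Eml2 did not. The matches are shown so that the motif can be read in its setting. Each is given on the gene's own strand with 20 bases on either side, ending at the gene's start, and capitals mark the motif or its reverse complement.
Ccdc153 (chr9:44240505-44240550, plus strand): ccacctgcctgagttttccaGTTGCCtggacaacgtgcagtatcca
Dynlrb2 (chr8:116504944-116504989, plus strand): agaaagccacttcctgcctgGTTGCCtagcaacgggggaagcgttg
Cfap44 (chr16:44394650-44394695, plus strand): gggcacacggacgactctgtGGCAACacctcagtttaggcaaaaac
Cfap44 (chr16:44394760-44394798, plus strand): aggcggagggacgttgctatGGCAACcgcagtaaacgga
Tekt1 (chr11:72361883-72361937, minus strand): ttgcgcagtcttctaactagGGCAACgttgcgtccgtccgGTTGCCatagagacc
Cdhr3 (chr12:33092876-33092901, minus strand): ctctgtttggtttcctgcctGGCAAC
Iqca (chr1:90153511-90153556, minus strand): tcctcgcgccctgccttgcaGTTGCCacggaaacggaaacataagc
A match of letters describes these windows and is no measure of binding. Both ends of the range among the 12 markers held it, as Ccdc153 had the largest log2 fold change (0.84) and Tekt1 the smallest (0.36).

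Immediate early genes, which cells switch on within minutes of a stimulus, leaned the same way with smaller changes. Of 23 tested, 21 had a higher and 2 a lower fitted level with 2 injections, with a median log2 fold change of 0.30, and 6 had an unadjusted p under 0.05, all on the higher side, where 4.13% of all genes did so. Only 2 of the 23, Fosb and Dusp1, did not overlap between the arms on that side, where 5.58% of all genes did so. None of these 23 passed the adjusted threshold, with or without the block. Leaving out 1X PBS replicate 1 gave a median of 0.20 and leaving out 1X cytokine replicate 2 gave 0.52, while libraries labelled cytokine compared alone gave 0.021. Fosb, an AP-1 subunit, held 172, 169 and 141 CPM with 2 injections and 94.9, 132 and 87.3 CPM with 1. The arms did not overlap, and the log2 fold change was 0.63 (edgeR adjusted p = 0.33). Dusp1, a phosphatase that turns off MAP kinases, held 871, 960 and 853 CPM against 601, 784 and 612 CPM (log2 fold change 0.45, edgeR adjusted p = 0.423). In both genes 1X cytokine replicate 2 was the highest of the 1X members. Egr1, a zinc finger factor, stood at 990, 998 and 866 CPM against 685, 878 and 601 CPM, so its arms overlapped.

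Socs3, the feedback inhibitor of cytokine receptors that signal through JAK and STAT3, held 414, 429 and 353 CPM with 2 injections and 259, 243 and 251 CPM with 1. Every 2X member exceeded every 1X member, with a log2 fold change of 0.69 (edgeR adjusted p = 0.101, with the block 0.0199). Genes of the NF-κB pathway were mixed. Of 19 tested, 11 were higher and 8 lower with a median of 0.16; none passed the adjusted threshold. The Lcn2 grouping orders 6 of the 19. Of the other 13, 2 had an unadjusted p under 0.05 on the higher side and 1 on the lower, where 4.13% and 2.83% of all genes did so. Nfkbiz, which encodes the nuclear inhibitor IκBζ needed for a set of secondary NF-κB genes, held 378, 323 and 234 CPM against 171, 251 and 145 CPM (log2 fold change 0.74, edgeR adjusted p = 0.412). Car9, a hypoxia-induced carbonic anhydrase, held 18.3, 22.4 and 21.0 CPM against 9.49, 7.76 and 11.9 CPM (log2 fold change 1.12, edgeR adjusted p = 0.208), while the other 12 hypoxia genes tested lay between log2 fold changes of -0.16 and 0.58.

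On the lower side, Timp1 had the largest change among the leading protein-coding genes. It encodes an inhibitor of matrix metalloproteinases that reactive astrocytes secrete, and lies on chromosome X from 20870166 to 20874735. Timp1 held 17.4, 5.99 and 11.0 CPM with 2 injections, 142 CPM in 1X PBS replicate 1, and 82.7 and 45.3 CPM in 1X cytokine replicates 2 and 3. The highest 2X member lay below the lowest 1X member. The log2 fold change was -2.95 (SE 0.41, edgeR adjusted p = 0.0535), and with the replicate block it was -2.89 (edgeR adjusted p = 0.00182). Without 1X PBS replicate 1 the log2 fold change was -2.48 (edgeR adjusted p = 0.161), and over 18 settings it lay between -3.36 and -2.48.

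Timp1 stood on a list of 13 genes that mark reactive astrocytes in general, of which 10 had a lower fitted level with 2 injections (median -0.27). Of these 13, 8 are ordered by the Lcn2 grouping itself, so the list is not independent of how the libraries were chosen. Gfap, the astrocyte intermediate filament gene, held 149, 119 and 112 CPM with 2 injections and 188, 232 and 152 CPM with 1. Serpina3n, a serine protease inhibitor of the acute phase, held 28.0, 28.1 and 29.5 CPM with 2 injections and 62.0, 98.0 and 19.6 CPM with 1, where 1X cytokine replicate 3 lay below all 2X members. Both follow the Lcn2 grouping and carry no test. Vim, the gene of the intermediate filament vimentin, does not follow it and differed little, at 1054, 1075 and 991 CPM against 1111, 1053 and 861 CPM (log2 fold change 0.07, 95% interval -0.20 to 0.34).

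Lists of Notch, Wnt and Shh targets and of growth factor feedback lay near 0, with single genes lower with 2 injections. Of 17 Notch, Wnt and Shh targets tested, 14 were lower with a median of -0.11, and 13 of 14 feedback genes were lower with a median of -0.18. No gene of either list passed the adjusted threshold without the block. Each list had 2 genes with an unadjusted p under 0.05 on the lower side, where 2.83% of all genes did so, and 2 of 17 and 3 of 14 genes did not overlap on that side, where 7.5% of all genes did so. Hes5, a Notch target that keeps neural progenitors from differentiating, held 79.7, 68.1 and 66.7 CPM against 127, 111 and 129 CPM (log2 fold change -0.75, edgeR adjusted p = 0.101, with the block 0.0199). Fzd2, a Wnt receptor outside both lists, held 35.8, 37.7 and 33.4 CPM against 62.8, 57.7 and 62.8 CPM (log2 fold change -0.75, edgeR adjusted p = 0.101, with the block 0.0522). The arms of both genes were separate. Spry2, an inhibitor of receptor tyrosine kinase signalling, held 74.6, 57.7 and 71.4 CPM against 104, 99.2 and 104 CPM (log2 fold change -0.56, edgeR adjusted p = 0.248).

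All 13 mitochondrially encoded genes, which code for subunits of the respiratory chain, had a lower fitted level with 2 injections, from -0.56 to nearly 0 (mt-Co3), with a median of -0.37. Of these, 9 had an unadjusted p under 0.05, against 2.83% of all genes in that direction, and 10 did not overlap between the arms, against 7.5% of all genes in that direction. None passed the adjusted threshold with or without the block, though DESeq2 called mt-Nd1 (adjusted p = 0.0153). mt-Nd1, a complex I subunit, held 4433, 5166 and 4994 CPM with 2 injections and 7046, 6403 and 7686 CPM with 1 (log2 fold change -0.51, edgeR adjusted p = 0.279). The mitochondrial share of all counts was 4.29% to 4.74% in the 2X members and 5.28% to 5.83% in the 1X members, and since this share can mark RNA quality, its part in the other differences was not tested. The 27 nuclear genes of oxidative phosphorylation had a median of -0.05, with 24 lower and none under an unadjusted p of 0.05.

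Heat shock genes were mixed (5 higher and 10 lower of 15, median -0.04), but the inducible pair Hspa1a and Hspa1b stood out. Hspa1a held 175, 236 and 186 CPM with 2 injections and 331, 815 and 238 CPM with 1, with 1X cytokine replicate 2 far above the rest. Hspa1b held 3.68, 12.2 and 5.47 CPM against 20.9, 62.7 and 15.6 CPM. Its log2 fold change was -2.25 (edgeR adjusted p = 0.311), and with the replicate block it was -2.16 (edgeR adjusted p = 0.0105). The 2 genes are near-identical copies, so how reads were divided between them is uncertain. Hmox1, the heme oxygenase of oxidative stress, held 20.6, 20.6 and 17.6 CPM against 46.5, 38.1 and 25.1 CPM (log2 fold change -0.90, edgeR adjusted p = 0.279).

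Choroid plexus genes varied more between libraries of one schedule than between schedules. The summed level of 10 markers was 3873, 7714 and 14370 CPM in 2X cytokine replicates 1, 2 and 3, and 8582 CPM in 1X PBS replicate 1 and 12150 and 21350 CPM in 1X cytokine replicates 2 and 3. The arms overlapped, but within each replicate number the 2X member was lower. Transthyretin (Ttr), the carrier of thyroid hormone in cerebrospinal fluid, led the list at 3605, 7206 and 13570 CPM against 8090, 11460 and 20200 CPM, with a log2 fold change of -0.68 (edgeR adjusted p = 0.826). With the replicate block that became -0.78 (edgeR adjusted p = 0.0199). All 10 markers were lower, with a median of -0.46 and 0 under an unadjusted p of 0.05 without the block. That median became -0.16 when 1X cytokine replicate 3 was dropped, and it became -1.04 when 2X cytokine replicate 3 was. Kl, which encodes klotho, also passed with the block (edgeR adjusted p = 0.0301).

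Blood-derived transcripts leaned higher with 2 injections and varied widely between libraries. The 8 erythrocyte genes summed to 13390, 4968 and 2520 CPM in the 2X members and to 6113, 952 and 2622 CPM in the 1X members, with replicate 1 highest in both arms. All 8 were higher with 2 injections (median 1.14), and none had an unadjusted p under 0.05. The 12 neutrophil genes summed to 196, 94.8 and 59.6 CPM with 2 injections and 51.5, 46.8 and 58.5 CPM with 1. The lowest 2X sum barely exceeded the highest 1X sum, and 45.6 of its 59.6 CPM came from Hdc. The geometric mean of the neutrophil genes that passed the filter (CPM plus 0.5) was 29.2, 13.2 and 4.4 with 2 injections. It was 7.3, 5.3 and 8.2 with 1, so 2X cytokine replicate 3 lay lowest of all. The 12 monocyte and macrophage genes summed to 94.59, 60.16 and 20.01 CPM against 44.75, 50.75 and 45.85 CPM, which overlapped. All 5 neutrophil genes that passed the filter were higher with 2 injections (median 1.47), and 4 of those follow the Lcn2 grouping and carry no test. Among these 4 is Hdc, the histidine decarboxylase gene of granulocytes and mast cells. It held 45.4, 51.6 and 45.6 CPM against 19.7, 24.0 and 31.7 CPM, given as values only. The other, Ngp, a gene of neutrophil granules, held 36.9, 5.61 and 2.08 CPM against 2.27, 1.14 and 4.91 CPM, and its arms overlapped (log2 fold change 2.51, edgeR adjusted p = 0.632). Microglia markers leaned lower, with 17 of 18 below 0 and a median of -0.31, but their sums overlapped at 872, 1097 and 554 CPM against 843, 1041 and 1309 CPM, and the median was -0.08 without 2X cytokine replicate 3. Whether any of these cell type signals took part in the differences of other genes was not tested.

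**Figure D4:**
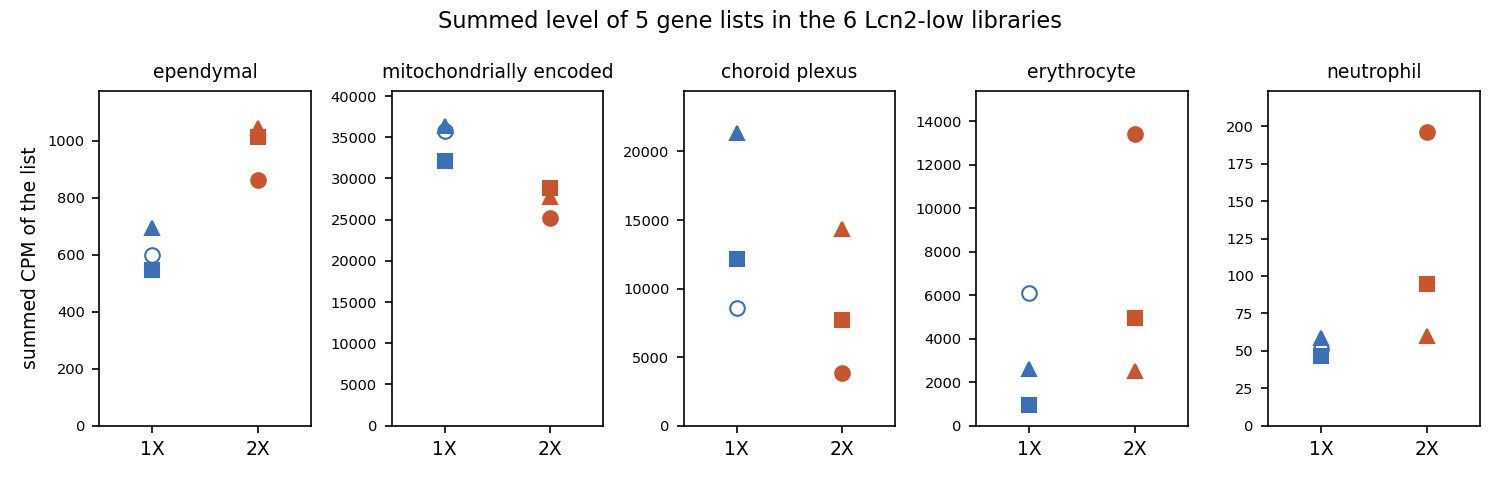
Summed CPM (linear axis from 0) of 5 gene lists in the 6 Lcn2-low libraries, with circles, squares and triangles for replicates 1, 2 and 3 and the open circle for the library labelled PBS. Ependymal sums are higher and mitochondrially encoded sums lower in all 2X libraries. Choroid plexus and erythrocyte sums spread widely within each schedule. Neutrophil sums are higher in all 2X libraries, narrowly so in replicate 3, where Hdc makes up 45.6 of 59.6 CPM.

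Most genes differed little. The 95% interval of the log2 fold change lay between -1 and 1, that is within 2-fold either way, for 10630 of 13254 genes (80.2%). Among genes with a mean of at least 20 CPM the interval did so for 7826 of 8096 (96.7%). It did so for 26 of 26 homeostatic astrocyte genes, of which 9 were higher and 17 lower with a median of -0.04, or 0.28 when libraries labelled cytokine were compared alone. The library that this setting brings in, the Lcn2-high 1X cytokine replicate 1, had a summed level of 31990 CPM for the 26 genes, below all members. Slc1a2, the main glutamate transporter of astrocytes, held 1770, 1653 and 1704 CPM with 2 injections and 1962, 1864 and 2162 CPM with 1 (log2 fold change -0.20, 95% interval -0.45 to 0.05). For Aqp4, which encodes a water channel, the log2 fold change was 0.10 (95% interval -0.29 to 0.48). Glul, glutamine synthetase, was the only one of the 26 with an unadjusted p under 0.05, where 2.83% of all genes had one on the lower side. It held 555, 493 and 531 CPM against 674, 686 and 672 CPM (log2 fold change -0.34, edgeR adjusted p = 0.432).

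Chromatin enzymes were likewise close to even between the schedules. The title of the series names epigenetic memory of astrocytes, and enzymes that place, read or remove histone acetylation were listed for that reason. All 18 histone acetyltransferases and bromodomain readers had 95% intervals within 2-fold (median -0.04), as did 14 of 15 histone deacetylases (median 0.07) and 26 of 27 histone methyltransferases and demethylases (median 0.03). Of all genes with a mean of at least 20 CPM, 96.7% had such intervals, so these shares do not set the families apart. Ep300, the acetyltransferase p300, held 47.5, 51.6 and 48.8 CPM with 2 injections and 55.2, 58.7 and 45.3 CPM with 1 (log2 fold change -0.09, 95% interval -0.38 to 0.20). Acly, which makes cytosolic acetyl-CoA from citrate, held 220, 215 and 189 CPM against 264, 172 and 258 CPM (log2 fold change -0.13, 95% interval -0.48 to 0.22). Chemokine, MHC class I and interferon-stimulated lists had medians of -0.09, -0.10 and -0.04, with 0 genes passing the adjusted threshold. Of the 52 genes tested on these lists, 12 follow the Lcn2 grouping. Of the other 40, 3 had an unadjusted p under 0.05, all lower with 2 injections, where 2.83% of all genes did so. These were Cxcl12, Erap1 and the alarmin gene Il33, the last at 85.8, 97.3 and 95.3 CPM against 150, 124 and 103 CPM.

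The same schedule contrast was far larger among the Lcn2-high libraries. There edgeR called 2428 of 14385 genes (16.9%) between the 3 libraries labelled 2X PBS and the 3 with 1 injection, 1257 higher and 1171 lower. The labels in that contrast differ from those among the members, because its 2X arm is PBS throughout, so schedule and agent cannot be told apart in the difference between both contrasts. Its arms were also unlike in Lcn2, at 374 to 578 CPM with 2X and 718 to 1069 CPM with 1X. Of the 515 genes tested there that follow the Lcn2 grouping, 293 were called. The part of the Lcn2 level in that contrast was not tested. The test of the difference itself called 1211 of 14481 genes (8.36%), 390 with a more positive change in the Lcn2-low libraries and 821 with a more negative one.

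The homeostatic astrocyte genes showed this most widely. In the Lcn2-high libraries all 26 were higher with 2X, 24 of them past the threshold, with a median of 1.20, and 23 of 26 passed the test of the difference. Their summed level was 50760 to 55410 CPM in the 2X Lcn2-high libraries and 24110 to 31990 CPM in the 1X ones, so that the members' 58410 to 71230 CPM lay above both. The ependymal list had the opposite sign in the Lcn2-high libraries: all 12 were lower with 2X (median -0.33, 3 called), and 8 of 12 passed the test of the difference. Cdhr4 and Timp1 were named for their change among the members, which is 1 term of this difference. For Cdhr4 the Lcn2-high log2 fold change was -0.69 (edgeR adjusted p = 0.00219), and the change among the members exceeded it by 1.68 (edgeR adjusted p = 9.99e-05). Immediate early genes also had opposite signs, with 24 of 24 lower in the Lcn2-high contrast (20 called) and 14 of 24 past the test of the difference.

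Mitochondrially encoded genes had no called member in the Lcn2-high contrast (8 higher, 5 lower, median 0.03), and only mt-Nd1 of the 13 passed the test of the difference (edgeR adjusted p = 0.0492). Timp1 was higher with 2X among Lcn2-high libraries by 0.45 (edgeR adjusted p = 0.0158), and the change among the members lay 3.43 below that on the log2 scale (edgeR adjusted p = 0.000966). The choroid plexus list was lower in both contrasts, with 9 of 10 called in the Lcn2-high libraries and 0 of 10 past the test of the difference.

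**Figure D5:**
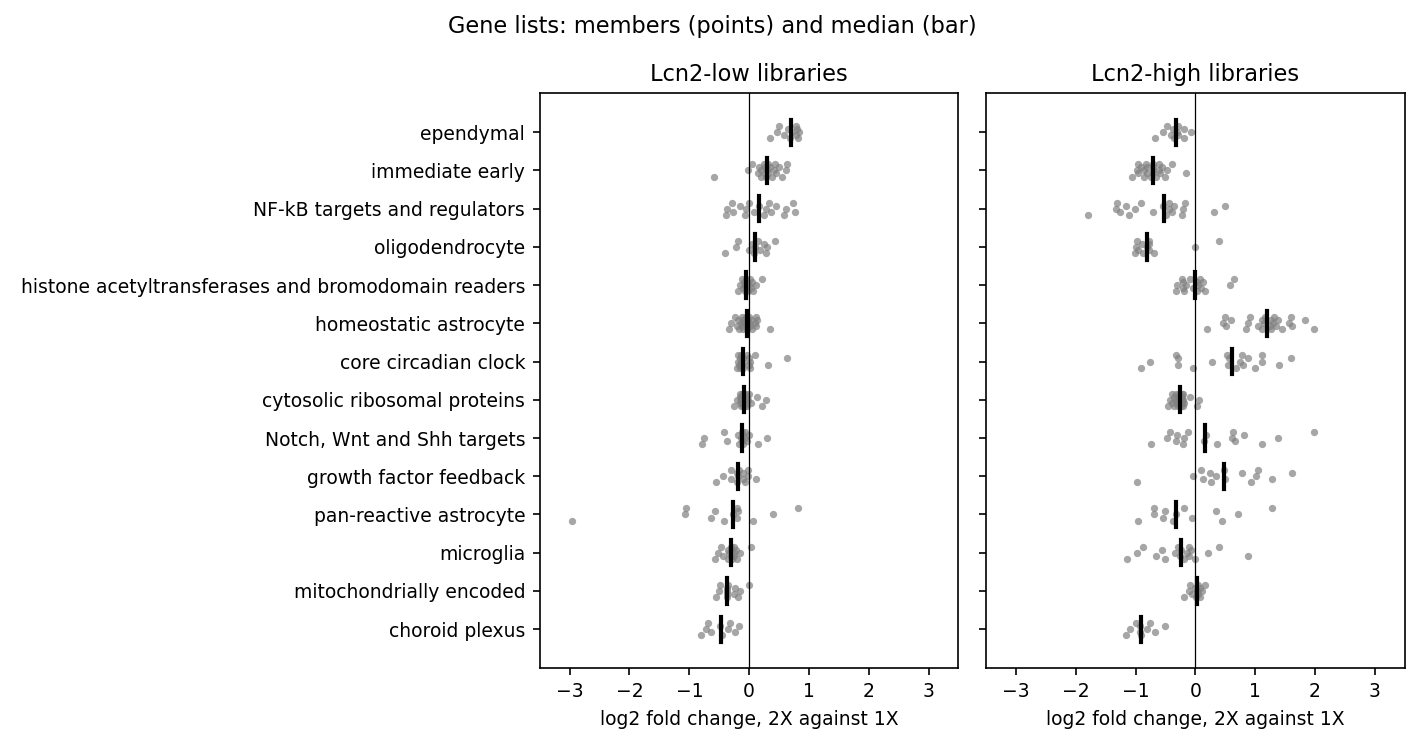
Log2 fold changes of 2X against 1X for the members of 14 gene lists (1 point per tested gene, bar at the list median) in the Lcn2-low libraries (left) and the Lcn2-high libraries (right). The ependymal median is 0.70 on the left and -0.33 on the right, and the homeostatic astrocyte median is -0.04 on the left and 1.20 on the right.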

How the data were processed

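The deposited files give an estimated count, a TPM value and effective lengths (other values, in bases) for 142604 transcripts, per the file headers. Per the labels' protocols, the authors made SMART-Seq2 libraries and assigned reads to the mouse transcriptome with kallisto 0.46.1, which shares reads among the transcripts they fit. The deposited estimated counts are not scaled between libraries, and the deposited TPM values sum to the same total in each. No source used here states whether strand was used, so reads of overlapping or antisense genes may be mixed. Floors cover counting error only, since PCR copies were not separated from molecules.

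Estimated counts were summed per symbol (55291 symbols) and rounded. GENCODE M21 gave a GRCm38 position for 98.1% of symbols. Members were taken by the limit of 100 CPM on Lcn2. Members, lists and comparisons were chosen with earlier results of these data known. The 3 members of each arm were compared by edgeR 4.0.16 under R 4.3.3 (filterByExpr, TMM, quasi-likelihood F test, Benjamini-Hochberg at 0.05). The difference between the Lcn2-low and Lcn2-high changes came from one fit of all 12 libraries. Standard errors are the log2 fold change over the root of F, so they and the 95% intervals include variation among libraries. Because members were picked to be alike in Lcn2, the spread within an arm may be smaller than that of a label.

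Same-numbered libraries of both arms correlated in their deviations from the arm means (0.264, 0.172 and 0.226 across genes). The numbers come from the labels, which do not say what they share. Leading genes were the 10 largest called changes per direction among protein-coding genes with a mean of at least 5 CPM, no overlap and no Lcn2 order, filled up by smallest p. To these were added up to 3 genes per function list (29 lists), up to 2 abundant and 2 smallest-p genes per cell list (12 lists), a panel of 24, and 8 genes by the position of 1X PBS replicate 1. Further list members are named because they were called with the block or to show a list's spread, after their values were seen.

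The other settings were DESeq2 1.42.0, limma 3.58.1 (trend on TPM, voom with weights), other filters and scaling, the block and leaving out libraries. On simulated counts for the Lcn2-low comparison (13247 genes), edgeR recovered 73 of 96 genes changed 2-fold and 98 of 98 changed 4-fold, with 6 false calls. For the difference (14246 genes) it recovered 35 of 99 and 87 of 97, with 7 false calls. Both simulations gave every gene the same dispersion, which genes of the data need not share. They therefore do not show how many changes of these sizes were missed. In the data, Timp1 and Hspa1b had log2 fold changes of -2.95 and -2.25 and were not called without the block (edgeR adjusted p = 0.0535 and 0.311). The 19 ATAC-seq samples were not analysed here.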

Additional observations from a re-analysis of the deposited data

Results flagged for a closer look

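Of 30 genes followed through the settings, 25 differed in their 2X against 1X change between Lcn2-low and Lcn2-high libraries by edgeR's test of the difference (adjusted p from 9.99e-05 to 0.0492), 15 with a more positive change among the Lcn2-low libraries and 10 with a more negative one. Most of the 30 were named for the size or small p of their change among the Lcn2-low libraries, which is 1 term of this difference, so the count says nothing about genes at large, of which 8.36% passed. The 2X libraries are labelled cytokine in one contrast and PBS in the other, so the schedule cannot be told apart from the agent in these differences.

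Among cilium and ependymal genes the log2 differences (Lcn2-low minus Lcn2-high) were 1.68 for Cdhr4, 1.19 for Ccdc153, 1.31 for Cdhr3, 1.06 for Ak7, 1.29 for Iqca, 1.20 for Tmem212, 0.82 for Rarres2, 1.20 for Rsph1 and 1.62 for Cd24a. Among genes of signalling and early response they were 1.14 for Socs3, 1.98 for Nfkbiz, 1.42 for Fosb, 1.15 for Egr1 and 1.34 for Dusp1, and the hypoxia gene Car9 had 1.65. The negative differences were -3.43 for Timp1, -2.75 for Hes5, -1.68 for Fzd2, -1.52 for Tspan4, -1.60 for Spry2, -0.92 for Hmox1, -2.93 for Coch, -0.60 for mt-Nd1, -0.88 for Glul and -2.71 for Hspa1b.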

How the results depend on the processing

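The count of genes called between 2X and 1X Lcn2-low libraries (3) was 0 for libraries labelled cytokine only and with an effective length offset, 1 by voom with quality weights, 6 for protein-coding genes only, 10 and 11 by limma-trend on TPM with a pseudocount of 1 and 0.1, 24 by DESeq2, 35 with the replicate block and 288 without a filter on low counts, where 29335 genes were tested. Leaving out 1 library gave 0 to 3 calls. The Lcn2-high count (2428) ran from 1093 (without 2X PBS replicate 2) to 3467 (without 1X cytokine replicate 1), a setting added after the data were seen, and the count for the difference (1211) ran from 717 (without 1X PBS replicate 2, or 2X PBS replicate 3) to 1689 (without 1X cytokine replicate 1) and was 1825 without the filter. The cause of these shifts was not tested. Among 540 values of 30 single genes over 18 settings none changed sign, 462 kept their side of the threshold, 56 newly passed it and 22 no longer did. Most of the 30 were named for their change among these same libraries, so a change of sign was unlikely from the start. Eml2 and Cdhr4 were each called in 7 of 18 settings. With libraries labelled cytokine only, which brings in the Lcn2-high 1X cytokine replicate 1, the median log2 fold change of the ependymal list was 0.42, of the mitochondrially encoded list -0.26, of the immediate early list 0.021 and of the homeostatic list 0.28. Depth limits low genes most, and 3 libraries an arm limit every test.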

Other observations

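The replicate block called genes on no list that the comparison had not named. Sspo, which encodes the SCO-spondin of the fluid-facing subcommissural organ, held 165, 92.8 and 45.9 CPM in the 2X Lcn2-low members and 23.1, 32.8 and 20.2 CPM in the 1X members. Its arms did not overlap, and the blocked log2 fold change was 1.95 (edgeR adjusted p = 0.0158). Csrnp1, a nuclear protein gene, held 131, 152 and 109 CPM against 76.4, 95.7 and 59.5 CPM (blocked 0.79, edgeR adjusted p = 0.017). Enpp2, which encodes the lysophospholipase autotaxin and is abundant in choroid plexus, held 1480, 3210 and 5248 CPM against 3867, 5320 and 8719 CPM, lower in the 2X member of each replicate number (blocked -0.92, edgeR adjusted p = 0.0173). Ace, Htr2c and F5 showed the same order within each number, with blocked changes of -0.92, -1.12 and -0.91 (edgeR adjusted p = 0.0158, 0.0348 and 0.0199). These genes and Enpp2 were named because the block called them, so that order adds no support. The choroid plexus markers Ttr and Kl, also called with the block, had it too. Spp1, the osteopontin gene, held 61.0, 29.6 and 13.1 CPM against 121, 52.2 and 30.6 CPM (blocked -0.96, edgeR adjusted p = 0.0199).

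For the Lcn2-low library labelled 1X PBS replicate 1, some genes with the largest gaps from both 1X cytokine members are given as values only. How many genes set this library apart was not counted. Slc4a1, the erythrocyte anion exchanger, stood at 119 CPM there and at 28.2 and 43.1 CPM in the others, and Ctse stood at 31.0 CPM against 7.63 and 6.55 CPM. On the lower side, Ier2, an immediate early gene, stood at 33.3 CPM against 153 and 176 CPM, and Atn1 at 5.56 CPM against 55.7 and 53.5 CPM.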
